A study of Mus musculus with 8 samples.

Results

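The genes described here are 10 membrane transporters that carry bile acids, bilirubin conjugates, phospholipid and other organic anions into and out of hepatocytes. They were chosen by name: Slc10a1, Slco1b2, Slco1a1 and Slco1a4 as uptake carriers, Abcb11, Abcb4 and Abcc2 as canalicular exporters, and Abcc3, Abcc4 and Slc51b as basolateral exporters. All 10 were found once in each of the deposited tables, among 51826 genes of the TAA and PBS livers and 55416 genes of the livers of fasted mice, and all 10 passed the filter on low counts in both comparisons. RNA came from whole livers of wild-type male C57BL/6J mice aged 8 to 9 weeks, taken 24 h after the dose, with 2 livers per group. The TAA group was given thioacetamide, which injures the liver, at 200 mg/kg into the peritoneum, and the PBS group was fed mice given phosphate-buffered saline. The Fasted_APAP group was fasted overnight, given acetaminophen into the stomach at 500 mg/kg and kept without food for a further 6 h, and the Fasted_PBS group was fasted mice given PBS. Feeding, route and deposited table differ together with the compound, so their parts in any difference between the models cannot be told apart.

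Hepatocytes take bile acids up from sinusoidal blood and secrete them across the canalicular membrane into bile. Slc10a1 (NTCP) takes up conjugated bile acids together with sodium, whereas the OATP carriers of the Slco family take up bile acids, bilirubin and drugs without sodium. Abcb11, the bile salt export pump, drives bile acids into the canaliculus, Abcb4 moves phosphatidylcholine into bile, and Abcc2 exports conjugates such as bilirubin glucuronide. Abcc3 and Abcc4 (MRP3 and MRP4) and the organic solute transporter, made of Slc51a and Slc51b, return bile acids and conjugates to blood across the basolateral membrane. In cholestasis, uptake carriers are known to be repressed and basolateral exporters induced, partly through the nuclear receptor FXR (Nr1h4) and its target SHP (Nr0b2).

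Slc10a1, Slco1b2, Slco1a1 and Abcc2 were lower in both models. Abcc4 and Slc51b were higher after APAP and not called after TAA, and the differences between their effects did not pass the test. After TAA, 4 of the 10 transporters were called lower and none higher by edgeR's quasi-likelihood test at an adjusted p under 0.05, against 13.8% of 16847 tested genes called lower and 12.1% called higher. The count of transporters higher after TAA was 0 at an unadjusted p under 0.05 and 0 by DESeq2 as well. After APAP, 7 were called lower and 2 higher, against 27.5% of 14794 tested genes called lower and 28.6% called higher. The median log2 fold change of the 4 uptake carriers was -2.25 after TAA and -2.44 after APAP. That of the 3 canalicular exporters was -1.01 after TAA and -1.26 after APAP. The basolateral exporters had a median of -0.015 after TAA and 1.04 after APAP. Both of these medians are the values of Abcc4, whose level was low. Abcc3, the basolateral exporter of highest level, was called lower after APAP (-0.849), and the summed basolateral level was below the controls in every treated liver. Over all tested genes the median was 0.026 for TAA and 0.037 for APAP. Standard errors below are approximate, from the fold change and its F statistic, and levels (CPM) are counts scaled to a common library size with TMM factors. In whole liver, fewer hepatocytes and less transporter RNA per hepatocyte cannot be told apart.

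**Figure D1:**
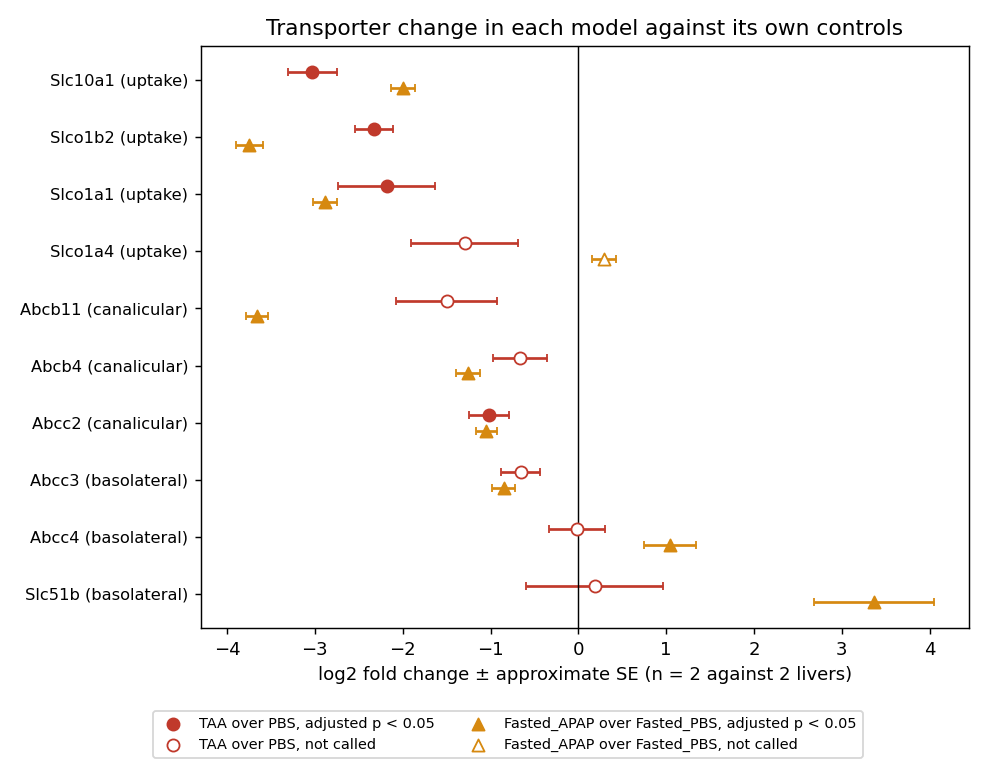
Log2 fold change of each transporter in TAA over PBS livers (red circles) and Fasted_APAP over Fasted_PBS livers (orange triangles), with bars of 1 approximate SE; filled symbols passed an adjusted p of 0.05. Slco1b2 and Abcb11 lie furthest left after APAP, at -3.75 and -3.66, and Slc10a1 after TAA, at -3.03.

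Slc10a1 was the transporter with the largest fall after TAA among the 10. It stood at 47.0 and 75.3 CPM in TAA livers, against 503 and 496 CPM in PBS livers, a log2 fold change of -3.03 (SE 0.28, adjusted p = 0.00364). Both TAA livers lay far below both controls, whose values were nearly equal. It stood at 118 and 139 CPM in Fasted_APAP livers, against 542 and 484 CPM in Fasted_PBS livers, a log2 fold change of -2.0 (SE 0.13, adjusted p = 1.63e-06). Again no treated liver reached its controls. The effects on Slc10a1 differed by -1.06 on the log2 scale (SE 0.30, adjusted p = 0.0572), which did not pass the test. DESeq2 called this difference (adjusted p = 0.0131), as did the fits with no filter (0.0457) and without TAA replicate 2 (0.00549), and the other alternatives did not. The gene lies at chr12:80953183-80968705 on the minus strand in GRCm38. Of 13812 genes tested in both comparisons, Ptprd, a receptor tyrosine phosphatase, was nearest to Slc10a1 in its profile over the 8 livers, followed by Acss3, a mitochondrial acyl-CoA synthetase, and Ttc39c. Their Euclidean distances, on log2(CPM + 2) relative to the mean of the controls of the same table, were 0.463, 0.579 and 0.581. The log2 fold change of Ptprd was -2.84 with TAA and -2.18 with APAP.

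Slco1b2, the mouse counterpart of the human hepatic OATP1B carriers, was lower in both models and further down after APAP. It stood at 205 and 254 CPM in TAA livers, against 1165 and 1134 CPM in PBS livers (log2 fold change -2.33, SE 0.22, adjusted p = 0.00369). It stood at 70.4 and 86.8 CPM in Fasted_APAP livers, against 986.5 and 1124 CPM in Fasted_PBS livers (log2 fold change -3.75, SE 0.16, adjusted p = 1.15e-07). The fall was therefore 5.01-fold after TAA and 13.4-fold after APAP. Counted from the most negative fold change, it ranked 78 of 14794 genes after APAP. In the edgeR fit of all 8 livers Slco1b2 was the only one of the 10 for which the difference between the effects of TAA and APAP was called, against 11% of 17381 genes called in either direction. The difference was 1.39 on the log2 scale (SE 0.25, adjusted p = 0.0109), a positive value meaning the smaller fall after TAA. The adjusted p was 0.0573 without Fasted_PBS replicate 2 and 0.0618 without Fasted_APAP replicate 1.

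Slco1a1, an OATP carrier of male mouse liver, was lower in both models, and its TAA livers were unlike each other. It stood at 44.5 and 142 CPM in TAA livers, against 406 and 437 CPM in PBS livers (log2 fold change -2.18, SE 0.55, adjusted p = 0.0422). After APAP both livers were nearly equal. They stood at 86.5 and 87.7 CPM in Fasted_APAP livers, against 583 and 706 CPM in Fasted_PBS livers (log2 fold change -2.89, SE 0.14, adjusted p = 2.32e-07). Without PBS replicate 1 the TAA comparison gave -2.26 (adjusted p = 0.117) and without PBS replicate 2 it gave -2.13 (adjusted p = 0.143), so the call for Slco1a1 was lost while its fold change stayed close. It was -3.24 without TAA replicate 2 (adjusted p = 0.0025) and -1.58 without TAA replicate 1 (adjusted p = 0.0109), both called.

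Slco1a4, which transports bile acids and digoxin, was the uptake carrier that was called in neither model. It stood at 6.57 and 25.0 CPM in TAA livers, against 39.2 and 38.3 CPM in PBS livers (log2 fold change -1.29, SE 0.61, adjusted p = 0.178). It stood at 47.9 and 53.7 CPM in Fasted_APAP livers, against 46.5 and 36.5 CPM in Fasted_PBS livers (log2 fold change 0.29, SE 0.13, adjusted p = 0.0884). Both Fasted_APAP livers were above both controls, though replicate 1 of each group differed by little. After APAP, scaling by library totals alone gave 0.48 (adjusted p = 0.0103), and leaving out Fasted_PBS replicate 1 gave 0.46 (adjusted p = 0.0223). After TAA the value was -2.55 without TAA replicate 2 (adjusted p = 0.0031) and -0.63 without TAA replicate 1 (adjusted p = 0.0639), and DESeq2 called it (-1.31, adjusted p = 0.0488). Within a liver, the count ratio of Slco1a4 to Slco1a1 was 0.554 and 0.612 in Fasted_APAP livers, against 0.0797 and 0.0517 in Fasted_PBS livers. It was 0.148 and 0.177 in TAA livers, against 0.0964 and 0.0876 in PBS livers.

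**Figure D2:**
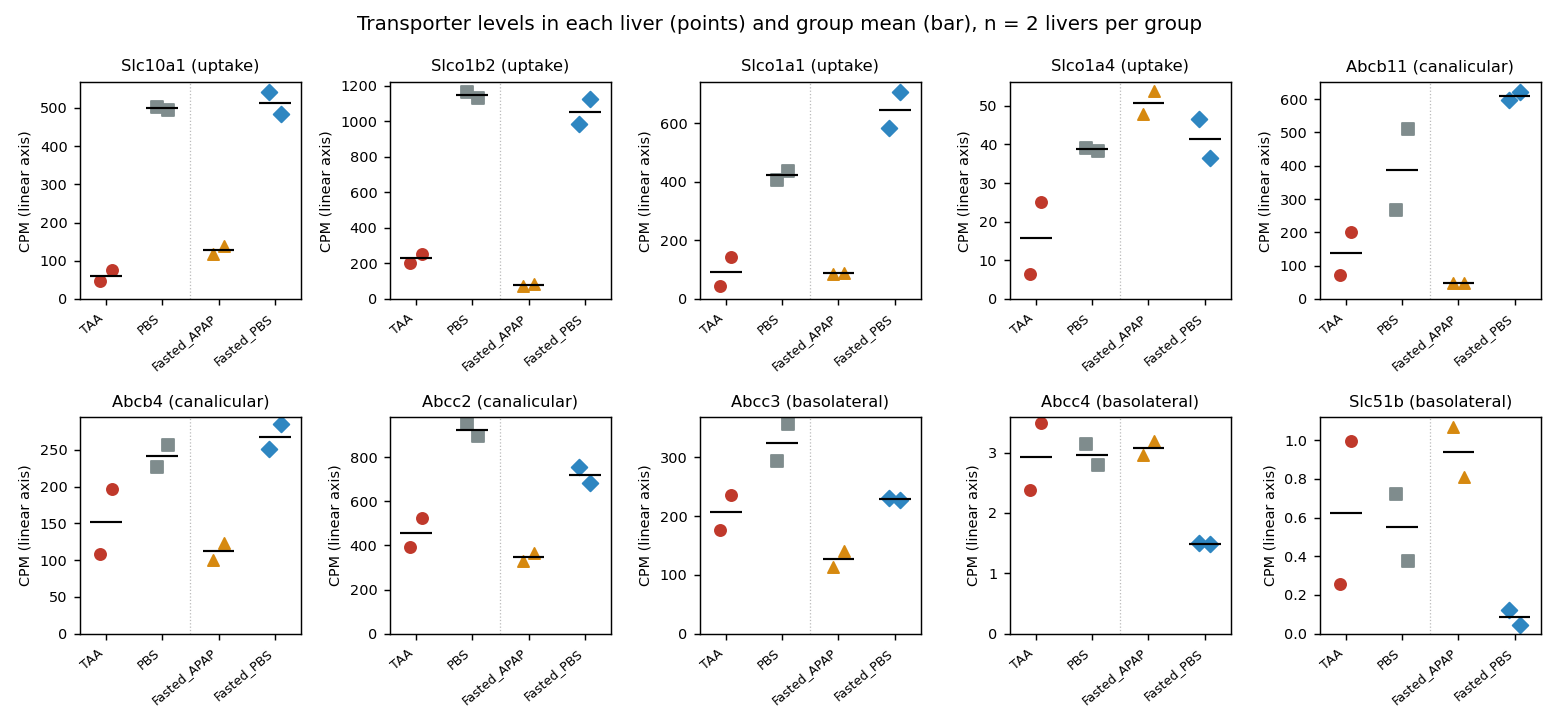
Level of each transporter in CPM (linear axis from 0) in every liver of the TAA, PBS, Fasted_APAP and Fasted_PBS groups; each point is 1 liver and each bar the mean of 2. The Slco1b2 points of Fasted_APAP livers sit at 70.4 and 86.8 CPM, under the TAA points at 205 and 254 CPM, while the Abcc4 and Slc51b points of Fasted_APAP livers lie above those of Fasted_PBS livers.

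The 3 Slco members lie in a cluster of 6 Slco1 genes on chromosome 6, in GRCm38 and GENCODE M21. Slco1b2 spans chr6:141629518-141686646 on the plus strand, and Slco1a4 and Slco1a1 span chr6:141805440-141856199 and chr6:141907282-141946962 on the minus strand. The other 3 genes of the cluster are Slco1c1, Slco1a6 and Slco1a5. Slco1a6 stood at 3.98 and 4.63 CPM in Fasted_APAP livers, against 1.83 and 1.02 CPM in Fasted_PBS livers, and was called higher (log2 fold change 1.59, SE 0.34, adjusted p = 0.00269). Slco1c1 and Slco1a5, at 0.214 CPM or less in every liver, were not tested in either comparison. Neighbouring genes of the cluster thus had values on both sides of 0 after APAP. Of the 100-base words in the transcripts of Slco1a1 and Slco1a4, 0.614% and 0.64% also occur in another Slco1 gene, so few reads of that length could come from more than 1 of them.

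The 250 bases before the RefSeq transcription start (GRCm38.p6) are shown for the 4 uptake carriers, of which Slco1b2, Slco1a1 and Slco1a4 lie in the Slco1 cluster. Capitals mark matches, on either strand, to GTTAATNAT (letters bound by HNF1 factors), GNCANTGAC (a loose form of the inverted repeat bound by FXR), TGACNNNGC (the antioxidant response element of NRF2) or TATAAA. CAAAGTCCA (HNF4A) and the stricter inverted repeat GTCANTGAC were searched as well, and matched in none of the 9 members with a promoter entry. The windows are chr12:80968706-80968955 (minus strand), chr6:141629268-141629517 (plus strand), chr6:141946963-141947212 (minus strand) and chr6:141856221-141856470 (minus strand).
Slc10a1: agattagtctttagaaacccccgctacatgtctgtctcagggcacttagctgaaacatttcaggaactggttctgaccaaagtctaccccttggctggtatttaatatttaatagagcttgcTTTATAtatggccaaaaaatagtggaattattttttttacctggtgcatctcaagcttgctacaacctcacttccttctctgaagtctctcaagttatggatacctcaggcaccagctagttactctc
Slco1b2: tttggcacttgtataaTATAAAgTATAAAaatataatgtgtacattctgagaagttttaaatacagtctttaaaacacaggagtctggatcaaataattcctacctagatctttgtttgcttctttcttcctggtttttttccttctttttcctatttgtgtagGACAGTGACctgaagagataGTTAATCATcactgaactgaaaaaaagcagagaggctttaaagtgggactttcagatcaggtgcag
Slco1a1: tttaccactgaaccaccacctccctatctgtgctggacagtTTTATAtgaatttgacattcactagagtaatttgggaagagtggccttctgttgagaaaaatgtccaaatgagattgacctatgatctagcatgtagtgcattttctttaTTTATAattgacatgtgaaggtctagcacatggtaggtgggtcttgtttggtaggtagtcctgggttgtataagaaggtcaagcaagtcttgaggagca
Slco1a4: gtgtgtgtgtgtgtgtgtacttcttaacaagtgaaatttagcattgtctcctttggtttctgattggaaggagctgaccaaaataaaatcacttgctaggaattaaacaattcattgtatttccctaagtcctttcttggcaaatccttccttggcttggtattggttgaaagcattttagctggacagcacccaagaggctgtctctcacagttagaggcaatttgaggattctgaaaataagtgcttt
The HNF1 match of Slco1b2 starts 66 bases before the transcription start, and 0.737% of 32851 mouse promoter windows of this length hold one. The TATAAA letters, in 12.4% of windows, occur in Slc10a1, Slco1b2 and Slco1a1. In Slco1a4 no motif searched was found. A match is a description of letters only, and no binding was measured.

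Abcb11 was among the most reduced of the 10 after APAP, and varied widely within both pairs of fed mice. It stood at 47.1 and 49.3 CPM in Fasted_APAP livers, against 596 and 622 CPM in Fasted_PBS livers, a 12.6-fold fall (log2 fold change -3.66, SE 0.13, adjusted p = 5.47e-08). It stood at 71.6 and 203 CPM in TAA livers, against 267 and 509 CPM in PBS livers (log2 fold change -1.501, SE 0.57, adjusted p = 0.115). The TAA livers were both below the PBS livers, but the spread within each pair was wide. DESeq2 called the fall after TAA (adjusted p = 0.00999), and so did the replicate block (log2 fold change -1.61, adjusted p = 0.0112). Without TAA replicate 2 the log2 fold change was -2.43. The log2 fold change of Abcb11 was -0.94 without TAA replicate 1 (adjusted p = 0.222) and -0.96 without PBS replicate 2 (adjusted p = 0.382), neither called. The difference between the 2 effects was 2.13 on the log2 scale (SE 0.69, adjusted p = 0.104). DESeq2 called it (adjusted p = 0.0492), as did the replicate block (0.00859) and the fit without TAA replicate 1 (0.00817). The genes nearest to Abcb11 in profile were Aox3, an aldehyde oxidase, Spata2l and Cyp2c40, a cytochrome P450, at distances of 0.665, 0.979 and 0.988. For Aox3 the fold change on the log2 scale was -1.49 with TAA and -3.75 with APAP.

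Abcb4 and Abcc2 moved less than Abcb11 after APAP. Abcb4 stood at 101 and 124 CPM in Fasted_APAP livers, against 251 and 286 CPM in Fasted_PBS livers (log2 fold change -1.26, SE 0.14, adjusted p = 3.72e-05). It stood at 108 and 197 CPM in TAA livers, against 227 and 257 CPM in PBS livers (log2 fold change -0.66, SE 0.30, adjusted p = 0.162). Abcb4 was thus called lower after APAP, and its TAA values lay below the controls without passing the test. After TAA Abcb4 had -1.16 without TAA replicate 2 (adjusted p = 0.0176) and -0.30 without TAA replicate 1 (adjusted p = 0.356). Abcc2 stood at 391 and 523 CPM in TAA livers, against 951 and 895 CPM in PBS livers (log2 fold change -1.01, SE 0.23, adjusted p = 0.0274). It stood at 332 and 366 CPM in Fasted_APAP livers, against 756 and 684 CPM in Fasted_PBS livers (log2 fold change -1.05, SE 0.12, adjusted p = 7.01e-05). The effects on Abcc2 differed by 0.0014 on the log2 scale (SE 0.25, adjusted p = 1). The call of Abcc2 after TAA was lost without PBS replicate 1 (-0.99, adjusted p = 0.13), PBS replicate 2 (-1.05, adjusted p = 0.132) or TAA replicate 1 (-0.82, adjusted p = 0.0595).

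Abcb11 spans chr2:69238282-69342616 on the minus strand, Abcb4 chr5:8893717-8959231 on the plus strand and Abcc2 chr19:43782192-43840740 on the plus strand. In Abcb11, 2.64% of exonic bases overlap Gm13613 on the other strand, which had at most 7 counts in any liver. How strand was handled in counting is not given in the sources used here. The 250 bases before the start of Abcb11, at chr2:69342617-69342866 (minus strand), are shown because this export pump is known to be activated by FXR. The part of FXR in the Abcb11 values was not tested.
Abcb11: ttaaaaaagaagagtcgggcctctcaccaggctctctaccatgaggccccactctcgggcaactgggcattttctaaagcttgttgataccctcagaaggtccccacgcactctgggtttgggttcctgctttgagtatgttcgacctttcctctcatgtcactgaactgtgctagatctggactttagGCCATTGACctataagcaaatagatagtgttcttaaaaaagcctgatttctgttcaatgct
The capitals mark a match to the loose inverted repeat GNCANTGAC, which starts 61 bases before the start site, and 2.94% of promoter windows hold one. This loose form was added to the search after these letters had been read. Slco1b2, shown above, has a match too, 86 bases before its start.

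Abcc3 was called lower after APAP, and both TAA livers lay below their controls without passing the test. After TAA it was called lower by DESeq2 (adjusted p = 0.023), in 1 fit of all 8 livers (0.0243), with the replicate block (0.0455) and without TAA replicate 2 (0.049). It stood at 176 and 236 CPM in TAA livers, against 294 and 356 CPM in PBS livers (log2 fold change -0.66, SE 0.22, adjusted p = 0.0802), and at 114 and 141 CPM in Fasted_APAP livers, against 231 and 228 CPM in Fasted_PBS livers (log2 fold change -0.85, SE 0.13, adjusted p = 0.000345). Neither pair of treated livers overlapped its controls, and the effects on Abcc3 differed by 0.16 on the log2 scale (SE 0.26, adjusted p = 0.765). The count ratio of Abcc3 to Slco1b2 within a liver was 0.861 and 0.930 in TAA livers, against 0.252 and 0.314 in PBS livers, and 1.61 and 1.63 in Fasted_APAP livers, against 0.234 and 0.203 in Fasted_PBS livers. Every treated liver had a higher ratio than its controls.

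Abcc4 was low in all groups and higher after APAP. It stood at 2.96 and 3.195 CPM in Fasted_APAP livers, against 1.503 and 1.48 CPM in Fasted_PBS livers (log2 fold change 1.04, SE 0.30, adjusted p = 0.0137). These levels rest on 72 and 87 counts in Fasted_APAP livers and on 37 and 32 counts in Fasted_PBS livers. Each treated liver was above both controls. The adjusted p was 0.0528 without Fasted_PBS replicate 2, 0.05 without Fasted_APAP replicate 1 and 0.0755 without Fasted_APAP replicate 2. In the fed mice it stood at 2.38 and 3.49 CPM in TAA livers, against 3.13 and 2.79 CPM in PBS livers (log2 fold change -0.015, SE 0.32, adjusted p = 0.977), and the groups overlapped. The difference between the effects was -1.09 (SE 0.42, adjusted p = 0.137). The genes nearest to Abcc4 in profile were Gtpbp3, Pdzd8 and Bak1, at distances of 0.117, 0.150 and 0.158. Their log2 fold changes after APAP were 0.63, 0.56 and 0.59, against 1.04 for Abcc4, and with 2 CPM added before the log, distances at such low levels are small.

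Slc51b, the beta subunit of the organic solute transporter, was called higher after APAP from few counts. It had 26 and 22 counts in Fasted_APAP livers, against 3 and 1 in Fasted_PBS livers (log2 fold change 3.37, SE 0.68, adjusted p = 0.00202). The value was 4.18 without Fasted_PBS replicate 1 and 2.84 without Fasted_PBS replicate 2, both called. The ratio of summed counts, scaled for library size, was 10.8, with an exact 95% interval of 3.94 to 41.1 for counting error only. It had 10 and 38 counts in TAA livers, against 27 and 14 in PBS livers (log2 fold change 0.18, SE 0.78, adjusted p = 0.879), and the scaled ratio there was 1.13 (interval 0.729 to 1.76). The effects on Slc51b differed by -3.24 on the log2 scale (SE 1.18, adjusted p = 0.119). The groups overlapped after TAA, where the replicates differed more than the treatment. Of its exonic bases, 12.8% overlap Rasl12 on the other strand, which had at most 8 counts in any liver. Its partner Slc51a had 0 counts in every TAA and PBS liver and stood at 0.863 and 0.588 CPM in Fasted_APAP livers, against 0.203 and 0.508 CPM in Fasted_PBS livers (log2 fold change 1.04, SE 0.60, adjusted p = 0.167).

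Abcc3 spans chr11:94343295-94392997, Abcc4 chr14:118482692-118706219 and Slc51b chr9:65412714-65422955, all on the minus strand. Abcc3 is not among the promoter entries used. The promoter window of Abcc4, at chr14:118706220-118706469 (minus strand), is shown because Abcc4 is a known NRF2 target. The part of NRF2 in the Abcc4 values was not tested.
Abcc4: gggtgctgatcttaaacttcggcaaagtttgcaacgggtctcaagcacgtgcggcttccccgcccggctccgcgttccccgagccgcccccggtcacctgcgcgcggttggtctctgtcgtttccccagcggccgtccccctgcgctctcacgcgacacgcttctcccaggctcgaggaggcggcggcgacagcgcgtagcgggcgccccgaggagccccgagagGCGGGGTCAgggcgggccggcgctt
The capitals mark the antioxidant response element letters, TGACNNNGC, read on the other strand and starting 25 bases before the start site. A match occurs in 10.2% of promoter windows, and in Abcc2 too, which was lower in both models.

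**Figure D3:**
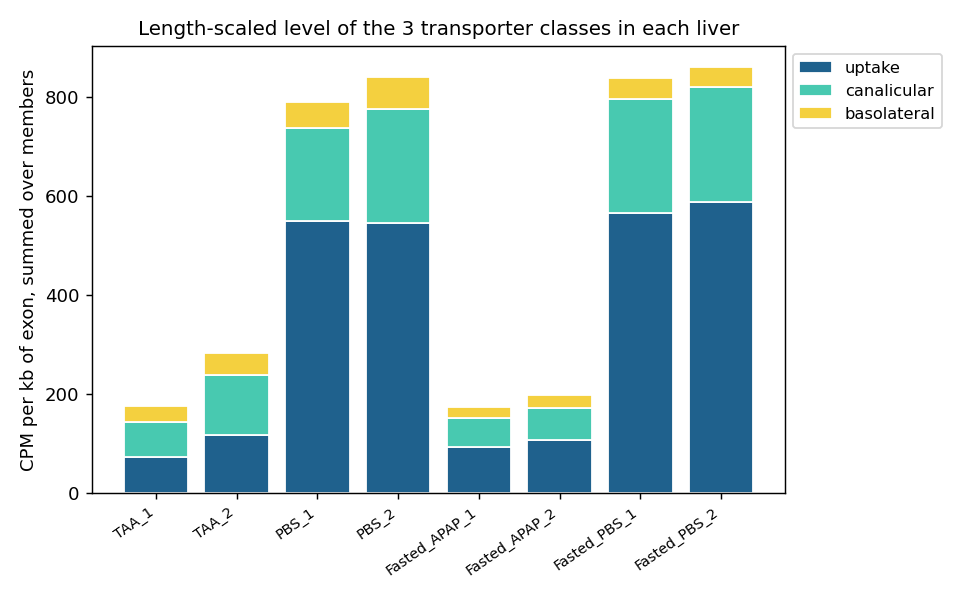
Summed level of the uptake, canalicular and basolateral transporters in each liver, in CPM per kb of exon, stacked for every liver of the TAA, PBS, Fasted_APAP and Fasted_PBS groups. The uptake share was 41.3% and 41.4% in TAA livers against 69.5% and 64.9% in PBS livers.

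Per kilobase of exon, the summed transporter level was 175 and 282 CPM per kb in TAA livers, against 789 and 839 CPM per kb in PBS livers. It was 173 and 198 CPM per kb in Fasted_APAP livers, against 837 and 859 CPM per kb in Fasted_PBS livers. Each treated liver lay far below the controls of its own table. Uptake carriers held 41.3% and 41.4% of that sum in TAA livers, against 69.5% and 64.9% in PBS livers, and 53.3% and 53.5% in Fasted_APAP livers, against 67.5% and 68.4% in Fasted_PBS livers. The basolateral share was 18.1% and 15.4% in TAA livers, against 6.72% and 7.57% in PBS livers, and 12.7% and 13.3% in Fasted_APAP livers, against 4.90% and 4.69% in Fasted_PBS livers. The basolateral sum itself was 31.7 and 43.4 CPM per kb in TAA livers, against 53.0 and 63.5 CPM per kb in PBS livers, and 21.9 and 26.4 CPM per kb in Fasted_APAP livers, against 41.0 and 40.3 CPM per kb in Fasted_PBS livers. The sum was thus below the controls in every treated liver while the share was above them. By level per kilobase the order in PBS livers began with Slco1b2 at 236 and 230 CPM per kb and Slc10a1 at 229 and 225 CPM per kb, whose ranges lay next to each other. In TAA livers Abcc2, at 45.8 and 61.3 CPM per kb, and Slco1b2, at 41.5 and 51.5 CPM per kb, led and overlapped. In Fasted_APAP livers Slc10a1 led, at 53.8 and 63.2 CPM per kb. Abcc2 followed there at 38.9 and 42.9 CPM per kb, and then Abcc3 at 19.9 and 24.8 CPM per kb. Slco1b2 stood at 14.3 and 17.6 CPM per kb in these livers.

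**Figure D4:**
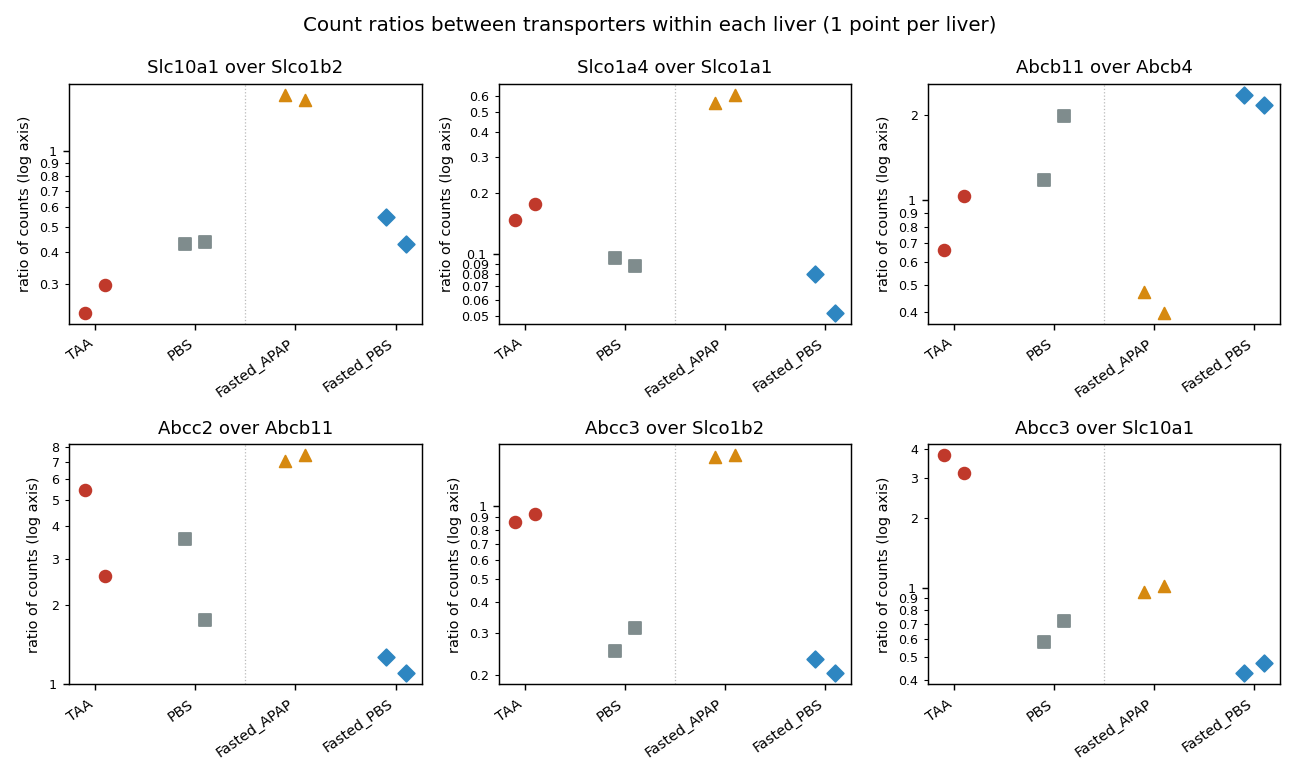
Ratio of counts between pairs of transporters in each liver (log axis, 1 point per liver) for 6 pairs in the TAA, PBS, Fasted_APAP and Fasted_PBS groups. The ratio of Slc10a1 to Slco1b2 was below the controls in TAA livers, at 0.230 and 0.297 against 0.432 and 0.437 in PBS livers, and above them in Fasted_APAP livers, at 1.68 and 1.60 against 0.549 and 0.430 in Fasted_PBS livers.

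Ratios within a liver do not depend on the scaling of the libraries. The ratio of Abcb11 to Abcb4 counts was 0.469 and 0.397 in Fasted_APAP livers, against 2.37 and 2.18 in Fasted_PBS livers, and 0.662 and 1.03 in TAA livers, against 1.18 and 1.98 in PBS livers. In each treated liver the ratio of the bile salt pump to the phospholipid transporter was below that of its controls. The ratio of Abcc4 to Abcc3 was 0.0260 and 0.0226 in Fasted_APAP livers, against 0.00650 and 0.00649 in Fasted_PBS livers, and 0.0135 and 0.0148 in TAA livers, against 0.0107 and 0.00784 in PBS livers.

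Other carriers moved in the same comparisons. Of 24 listed organic ion and bile acid carriers, 19 were tested after TAA, of which 11 were lower and 2 higher, with a median log2 fold change of -1.12. After APAP 11 of 21 were lower and 6 higher, with a median of -0.71. Over all tested genes, 13.8% were called lower and 12.1% higher after TAA, and 27.5% lower and 28.6% higher after APAP. The counts of this and the later lists were not tested against those shares. Slc22a7 (OAT2) stood at 10.1 and 12.1 CPM in TAA livers, against 36.2 and 37.9 CPM in PBS livers (log2 fold change -1.74, adjusted p = 0.0039), and had a log2 fold change of -3.41 after APAP (adjusted p = 1.72e-06). The effects on Slc22a7 differed by 1.64 (adjusted p = 0.00981). Slco2b1 was called lower after TAA and not after APAP (-1.67, adjusted p = 0.0071; after APAP -0.22, adjusted p = 0.174), and its effects differed by -1.49 on the log2 scale (SE 0.26, adjusted p = 0.0106). Slc47a1, the proton-coupled exporter MATE1, had -2.61 after TAA (adjusted p = 0.006) and Slc10a5 had -3.13 after TAA and -2.83 after APAP. Slc16a1, a lactate and ketone carrier, was higher in both models, at 103 and 117 CPM in TAA livers, against 39.1 and 38.5 CPM in PBS livers, and at 118 and 135 CPM in Fasted_APAP livers, against 34.9 and 38.4 CPM in Fasted_PBS livers. Slc22a30 fell most among them after APAP (log2 fold change -3.81, adjusted p = 8.73e-08), and Slc22a5, a carnitine carrier, was higher there (2.02, adjusted p = 1.34e-06). Slc10a2, the intestinal and cholangiocyte bile acid carrier, was at 68.5 and 68.3 CPM in TAA livers, against 35.8 and 22.4 CPM in PBS livers (log2 fold change 1.24, adjusted p = 0.0195), and at 56.6 and 40.7 CPM in Fasted_APAP livers, against 29.3 and 23.9 CPM in Fasted_PBS livers (log2 fold change 0.87, adjusted p = 0.00379).

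Of 18 listed ABC exporters and canalicular lipid transporters, 17 were tested in each comparison. After TAA 7 were lower and 1 higher, with a median log2 fold change of -0.45, and after APAP 7 were lower and 6 higher, with a median of -0.07. The shares over all tested genes were 13.8% lower and 12.1% higher (TAA), and 27.5% lower and 28.6% higher (APAP). Abcg5 and Abcg8, which together export cholesterol into bile, fell in both models, with log2 values of -2.46 and -2.49 for TAA and -2.29 and -2.50 for APAP. Abcc6 was lower too, at -2.45 on the log2 scale with TAA (adjusted p = 0.00361) and -2.72 with APAP (adjusted p = 1.07e-07). Abcg2, a canalicular exporter of urate and drugs, was called after TAA (-1.03, adjusted p = 0.0114) and not after APAP (-0.12, adjusted p = 0.433), and its effects differed by -0.93 (adjusted p = 0.0303). Abcb1a, a P-glycoprotein gene, was at 15.4 and 25.6 CPM in Fasted_APAP livers, against 1.75 and 1.48 CPM in Fasted_PBS livers (log2 fold change 3.66, adjusted p = 2.23e-05), while after TAA it had 0.71 (adjusted p = 0.142), and its effects differed by -2.99 (adjusted p = 0.00685). Its paralog Abcb1b had values of 1.02 with TAA (adjusted p = 0.0727) and 0.35 with APAP (adjusted p = 0.504). Abcc1 was the one called higher after TAA (1.13, adjusted p = 0.038), and it was higher after APAP too (1.55, adjusted p = 0.00262). Abcc12 and Abcg1 were called higher after APAP (2.58 and 1.72).

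The enzymes listed as conjugating and activating bile acids were mostly called lower, though not each of them in both models. Of 8 listed and tested, 5 were lower after TAA (median -1.21) and 5 lower and 1 higher after APAP (median -0.58). Slc27a5, the bile acid-CoA ligase, was lower, at -1.61 on the log2 scale with TAA (adjusted p = 0.00872) and -0.78 with APAP (adjusted p = 0.000413). Sult2a8, a sulfotransferase, had -3.31 after TAA and -2.27 after APAP, and Hsd3b7 had -1.53 and -1.91. Of 14 listed scaffold and trafficking proteins of the apical membrane, 3 were lower and 2 higher after TAA, and 6 were lower and 5 higher after APAP. For both lists the shares over all tested genes were 13.8% lower and 12.1% higher (TAA), and 27.5% lower and 28.6% higher (APAP). Pdzk1, an apical PDZ scaffold, was lower in both models, at -1.21 (log2) with TAA (adjusted p = 0.00823) and -2.07 with APAP (adjusted p = 6.31e-07). Radixin (Rdx), which anchors Abcc2 at the canalicular membrane, was also lower, with -1.02 after TAA and -1.10 after APAP, while moesin (Msn) was higher, with 0.78 and 1.198.

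**Figure D5:**
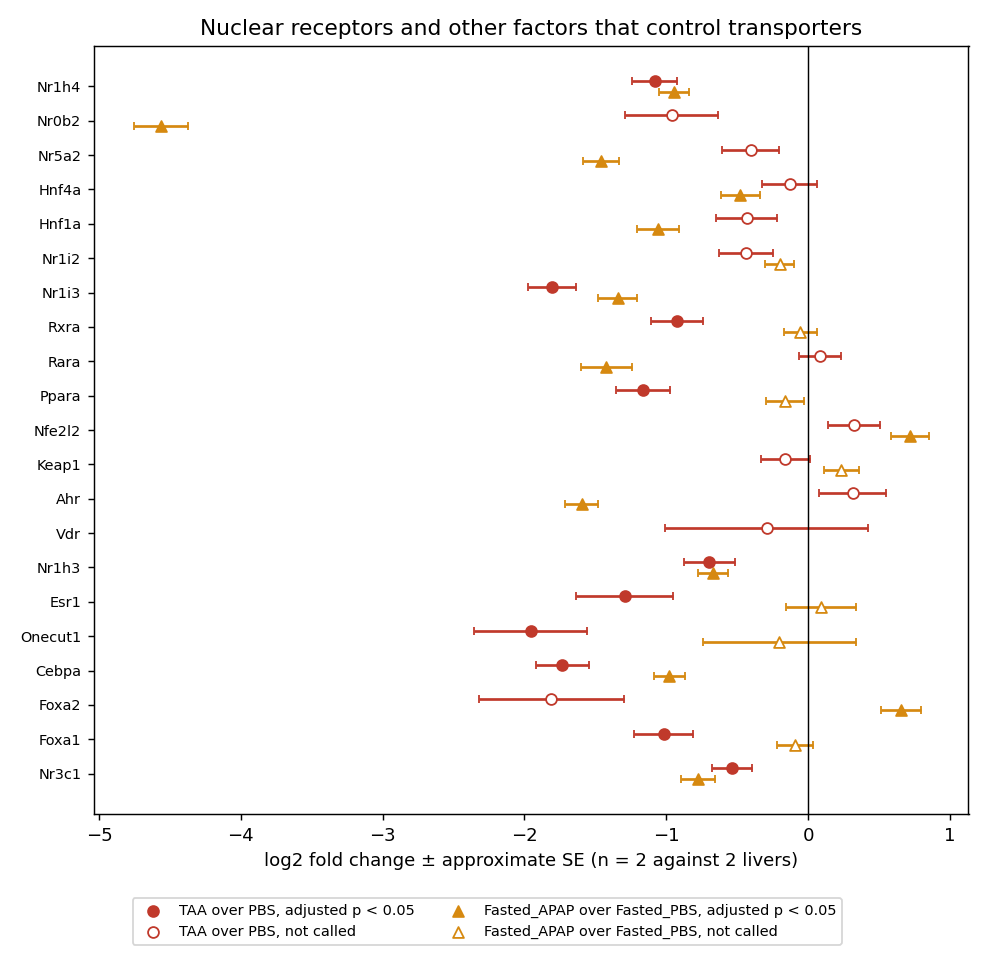
Log2 fold change of the nuclear receptors and transcription factors listed as controlling transporters, in TAA over PBS livers (red circles) and Fasted_APAP over Fasted_PBS livers (orange triangles), with bars of 1 approximate SE; filled symbols passed an adjusted p of 0.05. Nr0b2 lies furthest left, at -4.56 after APAP, and Nr1h4 is filled in both models.

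Of 21 listed receptors and factors, 10 were lower and none higher after TAA by edgeR (median log2 fold change -0.70), and of 20 tested after APAP 11 were lower and 2 higher (median -0.57). The count higher after TAA was 0 at an unadjusted p under 0.05 and 0 by DESeq2. For this list and the NRF2 and FXR-FGF lists below, the shares over all tested genes after TAA were 13.8% lower and 12.1% higher. After APAP those shares were 27.5% lower and 28.6% higher. Nr1h4 (FXR) stood at 78.6 and 67.1 CPM in TAA livers, against 159 and 150 CPM in PBS livers (log2 fold change -1.08, SE 0.16, adjusted p = 0.00933), and at 77.3 and 77.4 CPM in Fasted_APAP livers, against 145 and 153 CPM in Fasted_PBS livers (log2 fold change -0.95, SE 0.10, adjusted p = 4.48e-05). Neither pair of treated livers overlapped its controls. Nr0b2 (SHP), which FXR induces, stood at 2.01 and 1.36 CPM in Fasted_APAP livers, against 37.1 and 42.3 CPM in Fasted_PBS livers (log2 fold change -4.56, SE 0.19, adjusted p = 1.2e-07). In TAA livers it stood at 21.1 and 11.2 CPM, against 27.4 and 35.5 CPM in PBS livers (log2 fold change -0.96, SE 0.33, adjusted p = 0.0847). The effects on Nr0b2 differed by 3.57 on the log2 scale (SE 0.46, adjusted p = 0.00394). Nr1i3 (CAR) was lower in both models (-1.81, adjusted p = 0.00378 after TAA; -1.34, adjusted p = 2.82e-05 after APAP). Hnf4a had -0.13 after TAA (adjusted p = 0.653) and -0.48 after APAP (adjusted p = 0.0125). Cebpa was lower in both, at -1.73 after TAA (adjusted p = 0.00514) and -0.98 after APAP (adjusted p = 5.18e-05). Onecut1 was lower after TAA (-1.96, adjusted p = 0.0244), and Nr5a2 and Ahr were lower after APAP (-1.46 and -1.60). Nfe2l2, which encodes NRF2, was higher after APAP (0.72, adjusted p = 0.00114). Of 14 NRF2 targets, 7 were higher and 1 lower after TAA, and 8 higher and 3 lower after APAP. Hmox1, which encodes heme oxygenase, had the values 3.07 with TAA and 4.91 with APAP. Of the FXR-FGF genes, Klb, the co-receptor of FGF15, had -2.20 after APAP (adjusted p = 1.04e-06), and 2 of 3 tested were lower there. After TAA Klb had -1.12 (adjusted p = 0.0599), and none of the 3 was called by edgeR (median 0.35), with 1 higher and 1 lower at an unadjusted p under 0.05 and the same counts by DESeq2.

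Marker counts stand beside shares over all tested genes of 13.8% lower and 12.1% higher (TAA), and 27.5% lower and 28.6% higher (APAP). Of 9 hepatocyte markers 1 was lower and 2 higher after TAA, and 5 were lower and 2 higher after APAP. Their summed level was 86740 to 120500 CPM in TAA livers, against 86950 to 119600 CPM in PBS livers. It was 105600 to 115900 CPM in Fasted_APAP livers, against 122400 to 136700 CPM in Fasted_PBS livers. Alb was the largest part of these sums, at 31410 and 68300 CPM in TAA livers, against 45630 and 69400 CPM in PBS livers. Fga and Fgb were called higher in both models and Cps1 lower in both, so the sums do not give the number of hepatocytes. Pericentral markers summed to 1376 and 3886 CPM in TAA livers 1 and 2, against 10820 and 12220 CPM in PBS livers, with 6 of 10 lower. They summed to 3567 and 3604 CPM in Fasted_APAP livers, against 10460 and 9929 CPM in Fasted_PBS livers, with 9 of 10 lower. TAA replicate 1 was lower than replicate 2 in these markers and in each of Slc10a1, Slco1b2, Slco1a1, Slco1a4, Abcb11, Abcb4, Abcc2, Abcc3, Abcc4 and Slc51b, and the part of the pericentral change in the transporter results was not tested. Periportal markers summed to 4511 and 3468 CPM in TAA livers, against 7582 and 8627 CPM in PBS livers, with 5 of 10 lower, and to 4653 and 4844 CPM in Fasted_APAP livers, against 10430 and 8094 CPM in Fasted_PBS livers, with 6 of 10 lower and 2 higher. Neutrophil markers summed to 23.7 and 24.4 CPM in Fasted_APAP livers, against 2.80 and 3.56 CPM in Fasted_PBS livers, with 7 of 7 tested higher. They summed to 120 and 100.2 CPM in TAA livers, against 92.4 and 71.8 CPM in PBS livers, with 5 of 9 tested higher and 2 lower. Kupffer cell markers had 1 of 10 higher and 5 lower after TAA and 2 of 10 lower after APAP. The part of these other cells in the transporter results was not tested. Kidney markers summed to 0.123 CPM or less in any liver, and Kap was at 0 in all of them. Of markers of cholangiocytes, which express Slc10a2 and Slc51b, 1 of 8 tested was higher after TAA, 1 of 7 was higher and 1 lower after APAP, and Krt7 and Krt19 were called in neither model. Their sum was 328 and 181 CPM in TAA livers, against 172 and 116 CPM in PBS livers, and 111 and 72.4 CPM in Fasted_APAP livers, against 69.9 and 68.3 CPM in Fasted_PBS livers. The marker called higher was Sox9, at 3.77 (log2) with TAA and 3.46 with APAP.

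The tables held 35711238 to 41453751 counts in genes per liver for TAA and PBS, and 22320159 to 27110074 for the livers of fasted mice. After TAA, the number of transporters called changed when 1 liver was left out, and so did the number of all genes called. Slc10a1 and Slco1b2 kept their calls after TAA in each of these fits. After APAP 8 to 10 were called when any 1 liver was left out, and 115 of 120 values of single transporters over the alternatives kept their call and direction.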

How the data were processed

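Whole-liver RNA of 8 mice was sequenced as total RNA libraries. For the TAA and PBS livers the authors deposited whole-number counts of reads per gene. For the livers of fasted mice the authors deposited estimated counts, of which 27 to 29.7% of the values above 0 were not whole, and these were rounded here; whole counts had been planned for. The submitters' processing notes name the build GRCm38 (mm10), featureCounts, HISAT2 and Trim Galore, with versions, strand setting and the step behind the fractions not given in the sources used here. In the table of fasted mice, 548 assembled loci that name no gene were left out, which held 0.457% and 0.498% of Fasted_PBS totals and 2.43% and 2.46% of Fasted_APAP totals before that. Columns of other samples numbered 0. Counts in genes per liver were 35711238 and 36272636 for TAA, 38766065 and 41453751 for PBS, 23223479 and 25242490 for Fasted_APAP and 27110074 and 22320159 for Fasted_PBS. Counting intervals cover counting error only.

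The test of TAA over PBS livers, and that of Fasted_APAP over Fasted_PBS livers, was edgeR 4.0.16 under R 4.3.3 (filterByExpr with a minimum count of 10 and a minimum total of 15, TMM factors, robust quasi-likelihood test, Benjamini-Hochberg adjustment over all genes tested, called at an adjusted p under 0.05). Standard errors are the absolute log2 fold change over the square root of F. The difference between the effects was tested in 1 fit of all 8 livers. The code was checked on simulated counts. Alternatives were DESeq2 1.42.0, other size factors, library totals, no filter, no robust step, 1 fit of all livers, a replicate block and leaving out each liver. Using the estimated counts unrounded was added after seeing the data. The members and lists were chosen with earlier results of these data known. Besides the members, the genes named are receptors and carriers set by name (1 of them is not reported here), the 3 called genes of largest change per pathway list and direction with at least 1 CPM, and the 3 genes nearest in profile to Slc10a1, Abcb11 and Abcc4; Gm13613, Rasl12, Slco1c1, Slco1a5 and the markers were named for their position or list. The labels do not say whether the livers of a group were processed apart. The p-values rest on the spread between these livers only, with the spread of each gene shrunk towards a trend over all genes. The chi-square between the 2 replicates of a group, over its degrees of freedom, was 21.6 to 154. No library was thus a copy of the other of its group, and libraries of different groups were not compared in this way. Gene positions and exon lengths came from GENCODE M21 and promoter windows from RefSeq (GRCm38.p6), which matched 9 of 10 members. Plots used matplotlib 3.10.9 (Python 3.11.15).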

Additional observations from a re-analysis of the deposited data

Results flagged for a closer look

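The effects of TAA and APAP, each over its own controls, were called different for 14 of 47 named genes. This was by the edgeR test of the difference itself in all 8 livers, against 11% of 17381 genes. The 47 do not cover every gene named above, and not all of the named markers are among them. Many of the 47 were named for a large change in 1 comparison, which favours a difference between them, so the share is a description only. Differences are TAA effect minus APAP effect on the log2 scale. Among the transporters only Slco1b2 was called, at 1.391 (adjusted p = 0.0109). Among other carriers Slc22a7 had 1.644, Slc22a30 1.852, Slco2b1 -1.486 and Slc22a5 -2.224 (adjusted p = 0.00981, 0.00818, 0.0106 and 0.00482). Among exporters Abcg2 had -0.9336, Abcb1a -2.985 and Abcg1 -2.354 (adjusted p = 0.0303, 0.00685 and 0.00262). The scaffold Pdzk1 had 0.8374 (adjusted p = 0.0329). Among regulators Nr0b2 had 3.572, Ahr 1.88, Nr5a2 1.027 and Cebpa -0.7838 (adjusted p = 0.00394, 0.0055, 0.0341 and 0.0395). The NRF2 target Hmox1 had -1.868 (adjusted p = 0.00464). Feeding, route and table changed with the compound and cannot be told apart from it. With 2 livers per group, no liver was tested for standing apart from its group.

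Assembled loci that name no gene, left out of all comparisons, held 2.43% and 2.46% of the estimated counts in Fasted_APAP livers, against 0.457% and 0.498% in Fasted_PBS livers.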

How the results depend on the processing

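After APAP 115 of 120 values of single transporters kept their call and direction over the alternatives, and after TAA 90 of 110 did. After TAA, Abcc4 changed sign to 0.18 with library totals and ranged over -0.31 to 0.23 when 1 liver was left out, and Slc51b over -1.09 to 0.85. The number of transporters called after TAA was 4, with 7 by DESeq2 and 2 to 8 with 1 liver left out. Genes called after TAA numbered 4348, and 737 to 3275 with 1 liver left out, the lowest being 737 without PBS replicate 2 and 1126 without PBS replicate 1. For the difference between treatments 1 transporter was called, with 2 without the filter, 3 by DESeq2, 2 with the replicate block and 0 to 5 with 1 liver left out (5 without TAA replicate 1, 4 without TAA replicate 2 and 0 without Fasted_PBS replicate 2 or Fasted_APAP replicate 1). Genes called for that difference numbered 1913, and 698 to 2488 with 1 liver left out, with 698 to 867 without any 1 of the livers of fasted mice. The causes of these changes were not tested. Where 1 liver of a group was left, its spread was assumed to be like that of the other groups. Livers sharing a replicate number did not deviate together (correlations 0.0796 for TAA and 0.0550 for APAP), so the numbers are not taken to pair them. With the replicate block 3869 genes and 6 transporters were called after TAA, 8202 genes and 9 transporters after APAP and 1476 genes for the difference. Library totals moved the median of all genes by 0.204 (TAA) and 0.181 (APAP) on the log2 scale. Higher calls made up 63.4% (TAA) and 61.9% (APAP) with them, beside 46.7% and 51.0% with TMM factors. Unrounded estimated counts, a choice made after seeing the data, gave 8307 genes and 9 transporters. Abcc4 and Slc51b rest on few counts, which limits their precision.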
